A study of Mus musculus with 7 samples.

Results

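Promoters at which GATA2 and the variant 9aa-Ins were both detected by CUT&Tag numbered 674 of the 6254 peaks in the GATA2 list. They were defined by overlap and position. A peak of the anti-HA GATA2 list was taken if it overlapped a peak of the anti-HA 9aa-Ins list by at least 1 bp and if a protein-coding transcript started within reach of its summit, the summit lying up to 2 kb upstream or 100 bp downstream of that start. The 674 were 22.5% of the 2990 promoter peaks in the GATA2 list, and they were 70.4% of the 958 GATA2 peaks that overlapped any of the 1079 peaks of the 9aa-Ins list. The other 2316 promoter peaks were found with GATA2 only, and 284 shared peaks lay outside promoters. Because membership was chosen by overlap and position, peak heights, overlap and distance to a start are described without a test.

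GATA2 is a zinc finger transcription factor of hematopoietic stem and progenitor cells. Its C-terminal finger binds WGATAR motifs, in which W is A or T and R is A or G, and much of its known regulatory activity is exerted from enhancers rather than from gene starts. Promoters of widely expressed genes are typically rich in CpG, carry motifs for general activators such as the GC box and the CCAAT box, and lie in open chromatin. In CUT&Tag, an antibody directs a transposase to the chromatin around a protein, and the tagged DNA is sequenced, so that a peak marks where tagged fragments accumulate.

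The cells were hi-77-/- progenitors, made from mouse fetal liver lineage-negative cells with an estrogen-regulated Hoxb8 that holds them as progenitors in β-estradiol. Both alleles of the upstream Gata2 enhancer for which they are named are deleted in them, and some endogenous Gata2 is still expressed in cells of both groups. They were infected with a retrovirus carrying GFP and either HA-GATA2 or HA-9aa-Ins, in which 9 amino acids are inserted between the zinc fingers, then kept in culture for 3 days before live GFP+ cells were sorted. The anti-HA antibody is directed at the tag of the introduced protein. Each list joins 2 anti-HA libraries of cells that were pooled before they were split, and no peak list of cells without an HA-tagged protein was analysed here. No value below therefore has a replicate error, and peaks of a list are not replicates of a condition. The background, which stands in for depth, was close between the lists, with 0.464 reads in that of GATA2 and 0.455 in that of 9aa-Ins. The lowest pileup in either list was 9 reads. Pileup is the number of reads over a summit, and it was the unit of peak height throughout.

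The sequences around the summits of the 6 members of highest GATA2 pileup are shown first, since the tallest peaks were at genes of different kinds. Each is 121 bp of GRCm38 (the assembly of mm10) centred on the summit, read 5′ to 3′ on the strand of the gene. Capitals mark TATAAA, the WGATAR words and the CCAAT box on either strand.
Hist1h2ac, chr13:23683912-23684032, minus strand: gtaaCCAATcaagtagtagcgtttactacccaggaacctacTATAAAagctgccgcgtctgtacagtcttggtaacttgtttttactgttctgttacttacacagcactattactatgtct
Crlf3, chr11:80081215-80081335, minus strand: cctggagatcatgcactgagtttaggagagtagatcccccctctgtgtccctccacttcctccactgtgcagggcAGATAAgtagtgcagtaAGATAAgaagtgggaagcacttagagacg
Hist1h2bg, chr13:23571252-23571372, plus strand: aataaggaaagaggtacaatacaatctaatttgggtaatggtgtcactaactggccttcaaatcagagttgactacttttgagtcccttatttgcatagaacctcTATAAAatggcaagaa
Hist1h2ak, chr13:21753883-21754003, minus strand: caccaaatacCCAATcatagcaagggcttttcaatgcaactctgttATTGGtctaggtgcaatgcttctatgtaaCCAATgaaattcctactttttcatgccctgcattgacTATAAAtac
Ttc32, chr12:9029954-9030074, plus strand: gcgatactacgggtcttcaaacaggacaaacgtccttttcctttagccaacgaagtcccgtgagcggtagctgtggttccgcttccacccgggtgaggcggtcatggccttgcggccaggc
Hist1h2bk, chr13:22035716-22035836, plus strand: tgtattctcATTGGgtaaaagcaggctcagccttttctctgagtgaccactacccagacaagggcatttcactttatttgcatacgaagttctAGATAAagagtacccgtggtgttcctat
Of these, 4 were promoters of replication-dependent histone genes on chromosome 13. Hist1h2ac, Hist1h2bg and Hist1h2ak carried TATAAA in the sequence shown, and Hist1h2ac, Hist1h2ak and Hist1h2bk carried CCAAT. The Crlf3 sequence held AGATAA at 2 positions, the nearer centred 17.5 bp from the summit. The Ttc32 sequence held none of the marked motifs.

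The next 4 are the remaining members with WGATAR closest to the summit among the 50 of highest GATA2 pileup, in which Crlf3 and Hist1h2bk also fell. Ties at 38 reads were ordered by 9aa-Ins pileup, which left out Tspan32, with WGATAR 9.5 bp from its summit.
Sde2, chr1:180850780-180850900, plus strand: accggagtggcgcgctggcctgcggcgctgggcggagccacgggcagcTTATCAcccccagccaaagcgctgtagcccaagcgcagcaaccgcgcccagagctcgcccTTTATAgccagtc
Hist1h2bm, chr13:21722011-21722131, plus strand: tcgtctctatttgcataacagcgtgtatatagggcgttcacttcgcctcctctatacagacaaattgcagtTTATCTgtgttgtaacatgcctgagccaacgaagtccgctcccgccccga
B9d2, chr7:25680768-25680888, plus strand: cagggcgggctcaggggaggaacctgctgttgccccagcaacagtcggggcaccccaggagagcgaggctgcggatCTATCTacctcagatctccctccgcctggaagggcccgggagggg
Hist1h2be, chr13:23621396-23621516, minus strand: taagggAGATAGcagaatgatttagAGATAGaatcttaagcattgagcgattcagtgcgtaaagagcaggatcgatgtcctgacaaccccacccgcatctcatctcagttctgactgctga
The centre of the motif lay 9.5 bp from the summit at Sde2, 13.5 bp at Hist1h2bm, 18.5 bp at B9d2 and 32.5 bp at Hist1h2be. They are shown because WGATAR was absent from most member windows.

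The 674 summits lay close to gene starts. The median summit was 114 bp upstream of the nearest transcript start in reach. Summits lay upstream of the start at 535 members (79.4%), within 250 bp of it at 512 (76%) and more than 1 kb upstream at 28 (4.15%). The corresponding shares of GATA2-only promoter peaks were 75.4%, 77.9% and 4.84%. In protein-coding transcripts of GENCODE M21, 374 member summits were outside any transcript, 181 in a UTR, 82 in an intron and 37 in a coding exon. The members nearest to the limits of the rule were Mknk2, with a summit 1889 bp upstream, and Ppp3cb, with a summit 99 bp downstream. The closest shared peaks left out were at H2-DMa, 2110 bp upstream, and Rps23, 106 bp downstream. Overlap was shortest at Taf12, where the peaks had 5 bp in common, while the promoter peak at Top2b just missed a 9aa-Ins peak and was left out.

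**Figure D1:**
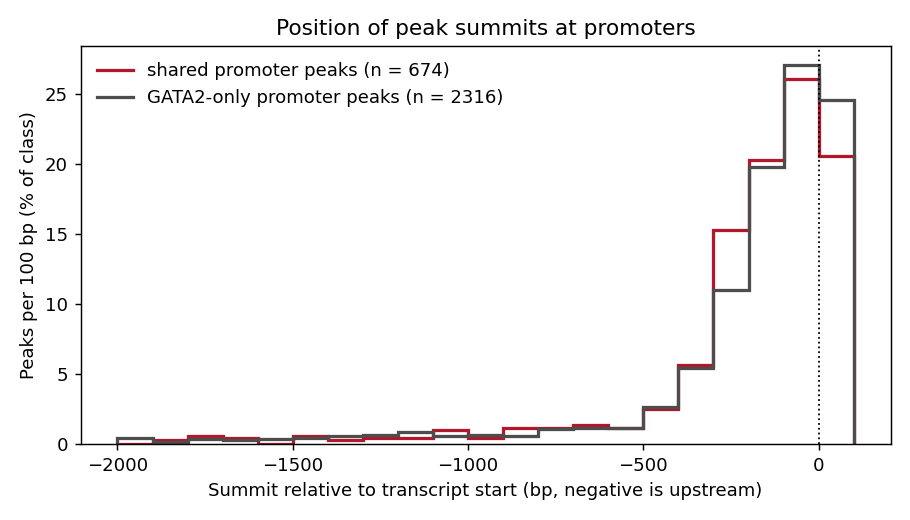
Distance of peak summits from the nearest protein-coding transcript start within the promoter limits (x axis, bp, negative upstream), as a share of each class per 100 bp (y axis, %), for 674 shared promoter peaks (red) and 2316 GATA2-only promoter peaks (grey). Both classes pile up near the start, with 90.5% of the summits of each within 500 bp.

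Members were among the higher peaks of the GATA2 list but stood near the middle of the 9aa-Ins list. With GATA2, the pileup at the summit ran from 9 to 87 reads with a median of 22 (quartiles 17 and 28), against a median of 14 at GATA2-only promoter peaks. The overlapping 9aa-Ins peak had a median pileup of 13 reads (quartiles 12 and 16), within a range of 9 to 128. The median member stood at percentile 81.9 of all GATA2 peaks, and its 9aa-Ins peak at percentile 51.7 of all 9aa-Ins peaks. Shared peaks outside promoters were much alike in height, with medians of 21 reads for GATA2 and 14 for 9aa-Ins, a median ratio of 0.714 and median widths of 573 and 327 bp. The share of promoter peaks that were members went from 30 of 753 peaks (3.98%) at GATA2 pileups of 9 to 12 up to 345 of 590 (58.5%) at pileups of 22 to 87. GATA2-only promoter peaks were not all small, since 374 of them had a pileup of 20 or more.

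The 9aa-Ins peak was the smaller of the pair at most members. The ratio of the 9aa-Ins pileup to the GATA2 pileup had a median of 0.647 (quartiles 0.515 and 0.846). It was below 0.5 at 144 members, and at 81 members (12%) the 9aa-Ins pileup was the higher. Peaks were also narrower with 9aa-Ins, with a median width of 320 bp against 580 bp, and at 434 members (64.4%) the 9aa-Ins peak lay wholly within the GATA2 peak. The summits of the pair were within 100 bp of each other at 361 members (53.6%) and within 200 bp at 546 (81%). A 9aa-Ins peak was common to more than 1 member for 22 of them. Across the 674 members, Spearman's rho between the pileups was 0.40 and Pearson's r of the log2 pileups 0.48. They are correlations across peaks of the same pair of lists, which are not independent replicates.

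**Figure D2:**
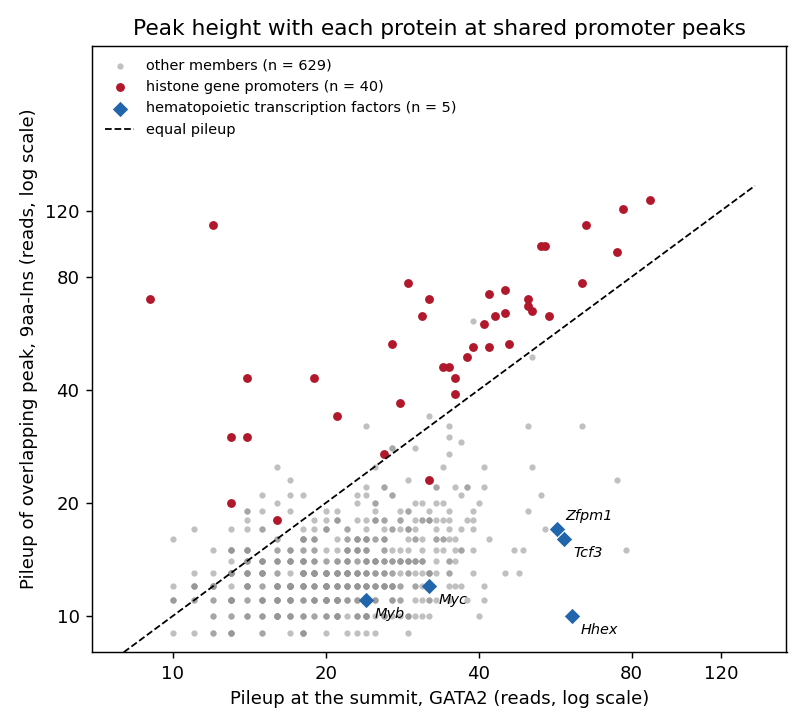
Pileup at the summit of each of the 674 members with GATA2 (x axis, reads, log scale) against the pileup of the tallest overlapping 9aa-Ins peak (y axis, reads, log scale), with the line of equal pileup. Histone gene promoters (red, n = 40) lie above the line at 39 of 40 members, and the 5 hematopoietic transcription factor genes (blue) lie below it. Several histone members share a 9aa-Ins peak.

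Histone genes stood high in both lists. Replication-dependent histone genes are transcribed in S phase and supply the histones that package new DNA. Of 67 such genes in the annotation, 47 (70.1%, 95% Wilson interval 58.3% to 79.8%) had a shared promoter peak, against 775 of all 21938 protein-coding genes (3.53%). A promoter peak with GATA2 alone was found at 1 further gene of the list. The 47 genes were reached by 40 members, of which 36 lay on chromosome 13 and 4 on chromosome 3. Members made up 56 of 126 promoter peaks on chromosome 13 (44.4%), and between 8.57% and 25.3% of those on each other chromosome that had any.

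Peaks at histone promoters were the reverse of the other members in relative height. Their median pileup was 37 reads with GATA2 and 61.5 reads with 9aa-Ins, a median ratio of 1.46, and the 9aa-Ins pileup was the higher at 39 of 40. These 40 are not separate comparisons, since several neighbouring members were paired with the same 9aa-Ins peak, and the taller summit then counts for each. At the 634 members without a histone gene, the medians were 21 and 13 reads, the median ratio was 0.625, and the 9aa-Ins pileup was the higher at 42 (6.62%). Of the 33 members with a 9aa-Ins pileup of 40 or more, 31 were at histone genes. The other 2, named after their values were seen, were Eapp with 39 reads for GATA2 and 61 for 9aa-Ins, and Tspoap1 with 51 and 49.

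The highest member in both lists was the promoter of Hist1h2ac (ENSMUSG00000069270.6), which encodes an H2A histone. Its GATA2 peak at chr13:23683250-23685594 reached 87 reads, and its 9aa-Ins peak at chr13:23682771-23686154 reached 128 reads, with summits 27 bp apart. Hist1h2bg, an H2B gene, had 77 reads with GATA2 and 121 with 9aa-Ins. Hist1h2bk had 65 and 110 reads, Hist1h2ak 75 and 93, and Hist1h3g, an H3 gene, 64 and 77. All 5 were higher with 9aa-Ins, although the order of the genes was not the same with each protein.

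Among the other members of highest 9aa-Ins pileup, Hist1h2bj had 54 reads with GATA2 and 97 with 9aa-Ins. Hist1h4i had 53 and 97 reads, Hist1h4d 45 and 74, and Hist1h2af 29 and 77. The 97 reads at Hist1h4i are those of the 9aa-Ins peak of Hist1h2bj, with its summit 1901 bp away. Likewise, the 77 reads at Hist1h2af are those of the 9aa-Ins peak of Hist1h3g, with its summit 1439 bp away. Another peak of the Hist1h2bk locus had 12 reads with GATA2 and was paired with the same 9aa-Ins peak of 110 reads, which gave the highest ratio of all members, 9.17. Hist1h3f, at a ratio of 7.78, likewise paired a GATA2 peak of 9 reads with a 9aa-Ins peak of 70. The ratio was 3.07 at Hist1h2ai (14 and 43 reads), 2.66 at Hist1h2af and 2.31 at Hist1h4j (13 and 30 reads). At histone genes the 9aa-Ins peaks were broad, with a median width of 1727 bp against 984 bp for GATA2, and 31 of 40 GATA2 peaks lay wholly within one of them. The summits of the pair were within 200 bp at 26 of these 40, so that at the others the heights compared were of different positions.

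By histone type, a shared promoter peak was found at 14 of 18 H2B genes, 11 of 18 H2A genes, 10 of 12 H3 genes, 10 of 13 H4 genes and 2 of 6 H1 genes, which encode the linker histone. Median pileups over the peaks of each type were 42.5 reads with GATA2 and 67.5 with 9aa-Ins for H2B, 43.5 and 70.5 for H2A, 37.5 and 57.5 for H3, 36 and 49 for H4, and 38 and 49 for H1. The 9aa-Ins median was the higher for every type, but the types are not separate instances, since 20 of the 40 peaks were in reach of genes of more than 1 type, among them 11 of the 12 peaks at H2A genes. Some histone genes are near-identical copies, and how reads that align to several copies were treated was not given in the sources used here, so single copies are uncertain.

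**Figure D3:**
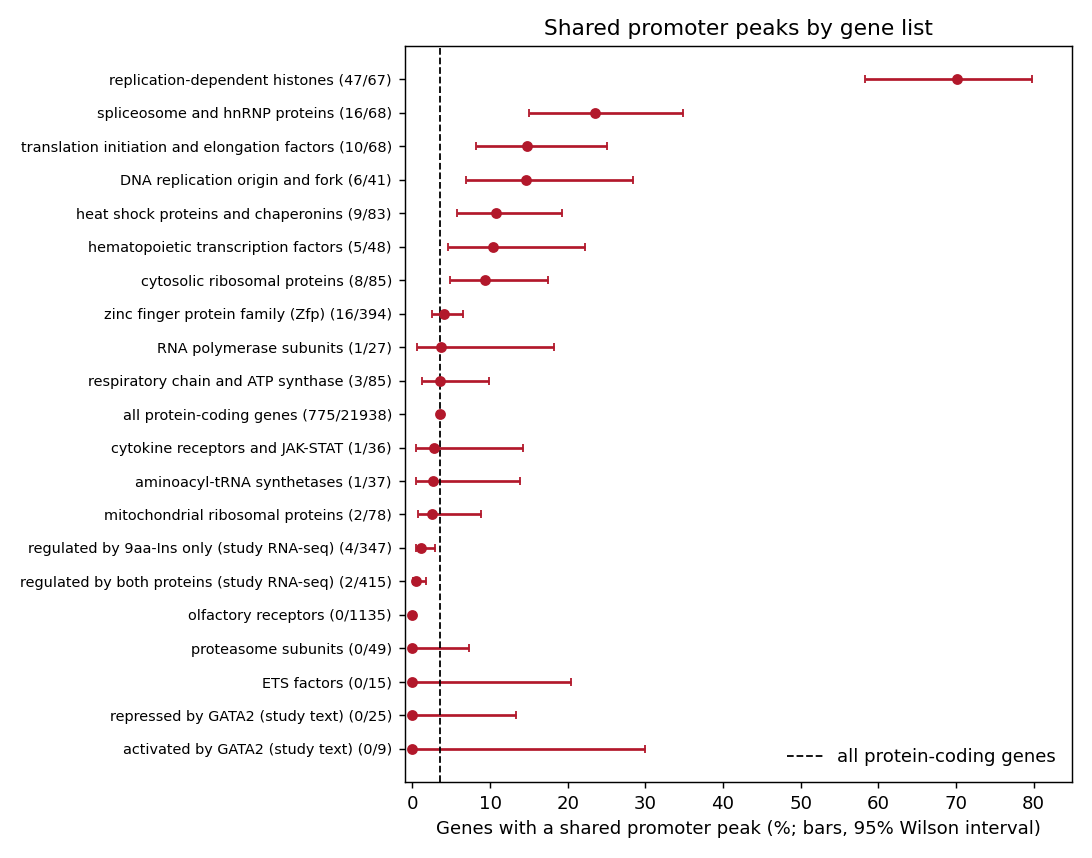
Share of genes in each list with a shared promoter peak (x axis, %; points, with 95% Wilson intervals as bars), with the number of genes beside each list name and the share of all protein-coding genes, 3.53%, as a dashed line. Replication-dependent histones stand at 70.1%, and the GATA2-activated and GATA2-repressed lists stand at 0.

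Further lists had higher shares than all genes, in part with more GATA2 promoter peaks of any kind. Of 68 genes for spliceosome and hnRNP proteins, which process pre-mRNA, 16 (23.5%, 15% to 34.9%) had a shared promoter peak. The highest of these peaks were at Hnrnpa2b1 (35 reads with GATA2 and 30 with 9aa-Ins), Hnrnpul2 (35 and 27) and Hnrnpa1 (30 and 14). At Hnrnpa2b1 and Hnrnpa1 the same peak was also in reach of the start of a heterochromatin protein gene, Cbx3 and Cbx5. Over the 17 peaks of the list, the median ratio of 9aa-Ins to GATA2 pileup was 0.714, and the 9aa-Ins pileup was the higher at 2. Any GATA2 promoter peak was found at 30 genes of this list (44.1%), against 14.8% of all protein-coding genes, and 53.3% of those 30 had a shared one, against 23.9% over all genes with a GATA2 promoter peak.

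Translation factors had a shared promoter peak at 10 of 68 genes (14.7%, 8.19% to 25%). The highest were at Eif5a (38 reads with GATA2 and 22 with 9aa-Ins), Eif4a1 (36 and 22) and Eef1a1 (34 and 25), which encode initiation and elongation factors. Genes for replication origins and forks had one at 6 of 41 (14.6%, 6.88% to 28.4%), among them Gins2 (32 and 13), Mcm7 (25 and 11) and Orc6 (24 and 10), subunits of the helicase and of the origin recognition complex. Heat shock proteins and chaperonins had one at 9 of 83 (10.8%, 5.81% to 19.3%), with Hspa8 (35 and 32), Hspa9 (29 and 15) and Hsp90aa1 (25 and 20) the highest, followed by Hsp90ab1 (25 and 18). Of 85 cytosolic ribosomal protein genes, 8 had one (9.41%, 4.85% to 17.5%), and these peaks were low, between 11 and 19 reads with GATA2, the highest at Rps13 (19 and 11), Rps25 (16 and 15), Rplp2 and Rps10 (both 16 and 10). Among the genes with any GATA2 promoter peak, a shared one was at 6 of 11 for replication (54.5%) and 10 of 23 for translation factors (43.5%). It was at 9 of 32 for heat shock proteins (28.1%) and 8 of 34 for ribosomal proteins (23.5%). These shares rest on few genes. The shares for heat shock and ribosomal proteins were near the 23.9% of all genes, while any GATA2 promoter peak was found at 38.6% of heat shock and 40% of ribosomal protein genes.

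Intervals of several other lists included the share of all genes. They were 16 of 394 Zfp zinc finger genes (4.06%, 2.51% to 6.49%, the highest at Zfp438, with 32 and 10 reads), 1 of 27 RNA polymerase subunits (Polr2a, 24 and 17 reads), 3 of 85 respiratory chain genes (Uqcrq, Ndufa11 and Uqcrh), 2 of 78 mitochondrial ribosomal proteins (Mrps18b and Mrpl51) and 1 of 37 aminoacyl-tRNA synthetases (Aars2). A shared promoter peak was found at 0 of 49 proteasome subunits, which allows a share of up to 6.12% (the limit of 3 counts, here and for every count of 0), while 13 of them (26.5%) had a promoter peak with GATA2, against 14.8% of all genes. Olfactory receptors, which are silent in most tissues, had 0 of 1135 (up to 0.264%) and also 0 promoter peaks with GATA2. These intervals cover counting error only, the lists were compared by counts alone, and nothing is called particular to a list from them.

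Members at hematopoietic transcription factor genes were few in number, but their share was above that of all genes. Of 48 genes, 5 (10.4%, 4.53% to 22.2%) had a shared promoter peak, against 3.53% of all genes, and any GATA2 promoter peak was found at 23 (47.9%), against 14.8%. Of those 23, 21.7% had a shared one, near the 23.9% over all genes with a GATA2 promoter peak. A promoter peak of the 9aa-Ins list was found at 8 of the 48 genes (16.7%), against 3.69% of all genes. The 5 members had a median pileup of 57 reads with GATA2 and 12 with 9aa-Ins, and their median ratio, 0.298, was lower than the 0.647 of all members.

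Hhex, a homeobox factor of early hematopoiesis, had the lowest ratio of the 674 members, with 61 reads for GATA2 and 10 for 9aa-Ins (0.164). The GATA2 summit was 995 bp upstream of the transcript start, and the summit of the tallest overlapping 9aa-Ins peak lay 1294 bp from it, so that Hhex was no member where summits had to be within 200 bp. Tcf3, which encodes E2A, a partner of hematopoietic bHLH factors, had 59 reads with GATA2 and 16 with 9aa-Ins, at summits 76 bp apart. Zfpm1 encodes FOG1, a cofactor that binds GATA factors, and had 57 and 17 reads at summits 10 bp apart. Myc, a driver of growth, had 32 and 12 reads, and Myb, a progenitor regulator, 24 and 11. All 5 were higher with GATA2, as were most members without a histone gene, and WGATAR was within 100 bp of the summit at Tcf3 and Zfpm1 but not at Hhex, Myc or Myb.

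Other members of low ratio were Crlf3, with 78 reads for GATA2 and 15 for 9aa-Ins (0.192), Aldh4a1, a mitochondrial proline catabolism gene, with 40 and 10 (0.25), Insig1, a sterol sensor partner, with 41 and 11 (0.268), and Dcaf11, with 48 and 13 (0.271). The Ttc32 peak had 75 and 23 reads. Gtf3c6, a subunit of the RNA polymerase III factor TFIIIC, was named for a peak 1045 bp upstream with 64 and 32 reads, within 1 kb of the start of the U3 RNA gene Rnu3a.

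Few members were at genes central to the study. Its text names 9 genes as activated by GATA2, 25 as repressed by it and 15 for ETS factors, and 0 genes of each list had a shared promoter peak. The limits that 3 counts set, 33.3%, 12% and 20%, are all above the 3.53% of all protein-coding genes, so that lists of these sizes cannot be told from the background. Any GATA2 promoter peak was at 3 (33.3%), 2 (8%) and 6 (40%) of them, against 14.8% of all genes. Of 36 cytokine receptor and JAK-STAT genes, 1 had a shared promoter peak, Csf2ra, a receptor chain for GM-CSF, with 17 reads for GATA2 and 12 for 9aa-Ins. That is 2.78% (0.492% to 14.2%), also near the share of all genes. The RNA-seq lists were matched by gene ID to the protein-coding annotation, and entries without a match were left out. Of 525 entries for regulation by both proteins, 415 matched, and 2 (0.482%, 0.132% to 1.74%) of these had a shared promoter peak. They were Atp2b4, a calcium pump gene, with 17 and 12 reads, and 2900026A02Rik, with 17 and 14. Of 414 entries for regulation by 9aa-Ins only, 347 matched, and 4 (1.15%, 0.449% to 2.93%) had one, at Map3k12 (25 and 18 reads), Tmx4 (22 and 12), Eya1 (21 and 13) and Fam160a2 (20 and 11). Both shares were below the 3.53% of all protein-coding genes. Any GATA2 promoter peak was found at 27 of the 415 (6.51%) and 32 of the 347 (9.22%), below the 14.8% of all genes. In the list for both proteins it was at 16 of 125 activated genes (12.8%) and 11 of 290 repressed genes (3.79%). The RNA-seq lists were drawn from other samples of the same cell system, and these counts are descriptions.

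The base composition of members was that of many promoters. The window of 100 bp to either side of the summit had a median GC content of 63.7% and a median CpG observed over expected of 0.803, against 64.2% and 0.791 at GATA2-only promoter peaks and 59.2% and 0.564 at shared peaks outside promoters. At 530 members (78.6%) the window had over 50% GC and a CpG ratio over 0.6, the composition used to define a CpG island, as at 74.6% of GATA2-only promoter peaks. Histone members were the less GC-rich, with a median of 48.8% against 64.7% for the rest.

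Sequence was not used to choose the members, so motif shares were tested. In the same windows, 14 motifs were searched on both strands, and shares were compared by Fisher's exact test (two-sided) with Benjamini-Hochberg adjustment over 28 tests, against GATA2-only promoter peaks and against shared peaks outside promoters. Against GATA2-only promoter peaks, 1 of 14 motifs differed (7.14%), and against shared peaks outside promoters 3 of 14 differed (21.4%). The rule placed members at promoters and the second class outside them. A difference from that class therefore cannot be told apart from a difference between promoters and other sites.

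WGATAR was present at a minority of members. It was within 100 bp of the summit at 74 of 674 members (11%, 95% Wilson interval 8.84% to 13.6%), against 337 of 2316 GATA2-only promoter peaks (14.6%, 13.2% to 16%) and 16.2% of windows at all protein-coding gene starts. The difference of -3.57 points from GATA2-only promoter peaks was not significant (exact test, adjusted p = 0.104). Shared peaks outside promoters carried it at 55 of 284 (19.4%, 15.2% to 24.4%), a difference of -8.39 points for members that passed (exact test, adjusted p = 0.00594). This second difference was also -1.08 points with gene starts only (exact test, adjusted p = 0.712), -2.83 in windows of 50 bp to either side (adjusted p = 0.327) and -6.61 with a reciprocal overlap of 50% (adjusted p = 0.126), none of which passed. It was not past the threshold over 5 bins of GC content (-2.99 points, adjusted p = 0.444, Cochran-Mantel-Haenszel test, n = 674 and 284). At like peak height, the difference from GATA2-only promoter peaks was wider, -9.2 points over 5 bins of pileup (adjusted p = 4.18e-06, Cochran-Mantel-Haenszel test, n = 674 and 2316). In the lowest bin, of 9 to 12 reads, the shares were 4 of 30 members (13.3%) and 89 of 723 GATA2-only promoter peaks (12.3%), and in the other 4 bins the members had the lower share. Histone members carried it at 22.5% and the other members at 10.3%. In whole peaks, where members are wider and hold more sequence, the direction turned (28.5% against 22.9%, exact test, adjusted p = 0.00711).

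AGATAG was the most frequent of the 4 words, at 28 members, followed by TGATAG at 19, TGATAA at 17 and AGATAA at 16. An E-box (CANNTG) followed by WGATAR after 6 to 14 bp is the composite element of GATA2 and TAL1 complexes. It was present in 1 of 674 member windows (0.148%, 0.0262% to 0.836%) and 12 of 2316 GATA2-only promoter windows (0.518%, 0.297% to 0.903%). These intervals overlap. Members with WGATAR had a median of 27 reads with GATA2 and 14.5 with 9aa-Ins, and those without it 21 and 13. Without histone genes, the motif was found at 26 of 128 members with a ratio of 0.164 to 0.478 (20.3%, 14.3% to 28.1%) and at 7 of 123 with a ratio of 0.85 to 1.6 (5.69%, 2.78% to 11.3%). The bins between held 7.03%, 10.4% and 7.69%, so there was no steady fall. With histone genes, the lowest bin held 18.8% and the highest 11.9% (16 of 134), above the 3 bins between (7.58%, 9.63% and 6.67%). The ratio contains the GATA2 pileup, which was itself higher at members with the motif, so these shares are given without a test.

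**Figure D4:**
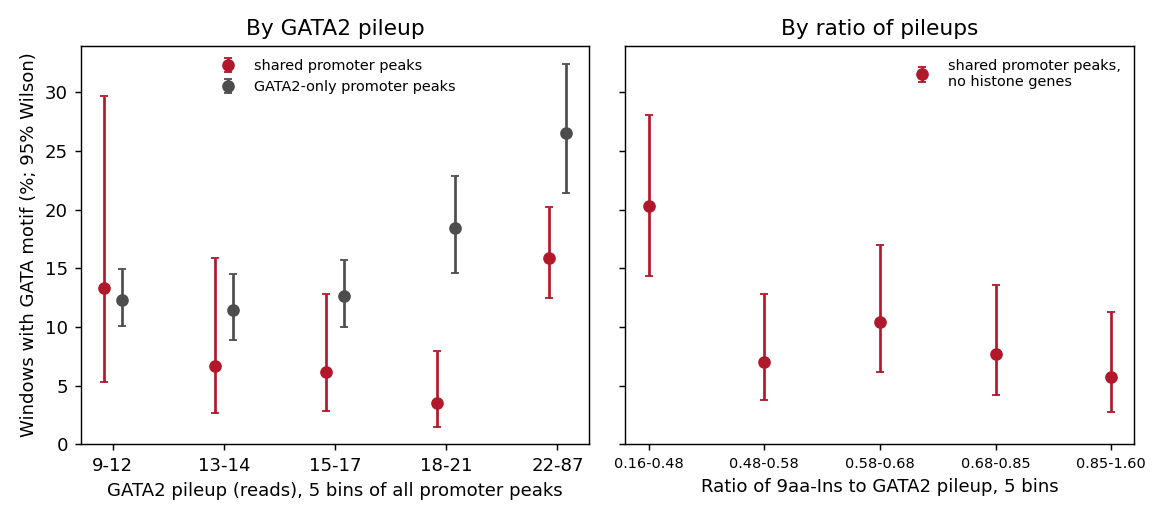
Share of windows of 100 bp to either side of the summit with WGATAR (y axis, %, with 95% Wilson intervals), left by GATA2 pileup in reads for shared (red) and GATA2-only (grey) promoter peaks, and right by ratio of 9aa-Ins to GATA2 pileup for members without histone genes. At pileups of 9 to 12 reads, the motif was in 13.3% of members and 12.3% of GATA2-only promoter peaks, at pileups of 22 to 87 reads in 15.9% of members and 26.5% of GATA2-only promoter peaks, and at ratios of 0.164 to 0.478 in 20.3% of members.

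The ETS motif (CCGGAA), bound by ETS factors such as GABPA, was found at 105 members (15.6%, 13% to 18.5%), against 430 GATA2-only promoter peaks (18.6%, 17% to 20.2%), 34 shared peaks outside promoters (12%) and 15% of all gene starts. Neither difference passed the exact test's threshold, at -2.99 points (adjusted p = 0.217) and 3.61 points (adjusted p = 0.3). It was at 0 of the 40 histone members, which allows a share of up to 7.5% by the limit of 3 counts. In whole peaks members carried it more often than GATA2-only promoter peaks (41.7% against 29.4%, exact test, adjusted p = 1.83e-08).

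The TATA box (TATAAA) was the motif that differed between members and GATA2-only promoter peaks, at 38 of 674 (5.64%, 4.13% to 7.64%) against 58 of 2316 (2.5%, 1.94% to 3.22%), a difference of 3.13 points (Fisher's exact test, adjusted p = 0.00214). Shared peaks outside promoters carried it at 14 of 284 (4.93%), a difference of 0.708 points (exact test, adjusted p = 0.788). All 3 shares were below that of all gene starts, 8.08%. Histone members carried it at 35% and the other members at 3.79%. Without histone gene promoters the difference was 1.28 points (exact test, adjusted p = 0.313), and WGATAR then passed the threshold instead (-4.27 points, adjusted p = 0.0344). Histone promoters resemble one another in sequence, so their windows are not independent.

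The GC box (GGGCGG, bound by SP1 and related factors) was present at 414 members (61.4%), against 60.8% of GATA2-only promoter peaks (exact test, adjusted p = 0.788), 37.7% of shared peaks outside promoters (adjusted p = 5.18e-10) and 40% of all gene starts. CCAAT, bound by NF-Y, was present at 226 members (33.5%), against 30.9% of GATA2-only promoter peaks (exact test, adjusted p = 0.317), 21.8% of shared peaks outside promoters (adjusted p = 0.00263) and 28.2% of all gene starts. Both were higher at members than at shared peaks outside promoters, a class that the rule set apart by position, and neither differed between the 2 promoter classes. The GC box difference of 23.7 points fell to 13 over 5 bins of GC content, 12.2 with gene starts only and 14.6 in windows of 50 bp to either side, and passed in each. CCAAT did not pass with a reciprocal overlap of 50% (11 points, exact test, adjusted p = 0.0641) or at a stricter q-value of 1e-10 (10 points, adjusted p = 0.0587). Of histone members, 50% carried CCAAT. The other 9 motifs were each in 1.19% to 6.97% of members, and none differed in either comparison at the adjusted threshold. AP-1 (TGAGTCA) was found at 8 members (1.19%) and 2.8% of all gene starts, and RUNX (TGTGGTT) at 9 (1.34%) and 3.08%. CRE (TGACGTCA) was found at 10 (1.48%) and 2.01%, and the YY1 core (AAGATGGC) at 13 (1.93%) and 2.79%. The ZNF143 core (ACTACAA) was found at 15 (2.23%) and 2.29%, and the NRF1 core (GCGCATGC) at 21 (3.12%) and 2.7%. The E-box CACGTG was found at 43 members (6.38%) and 5.68% of all gene starts, and the E-box CAGATG at 47 (6.97%) and 9.52%. E2F words (TTTCCCGC, TTTGGCGC, TTTCGCGC or TTTGCCGC) were found at 28 members (4.15%), against 3.02% of GATA2-only promoter peaks (exact test, adjusted p = 0.3) and 2.07% of all gene starts. A match says only that these letters stand in the window, and no match says nothing of the factor.

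**Figure D5:**
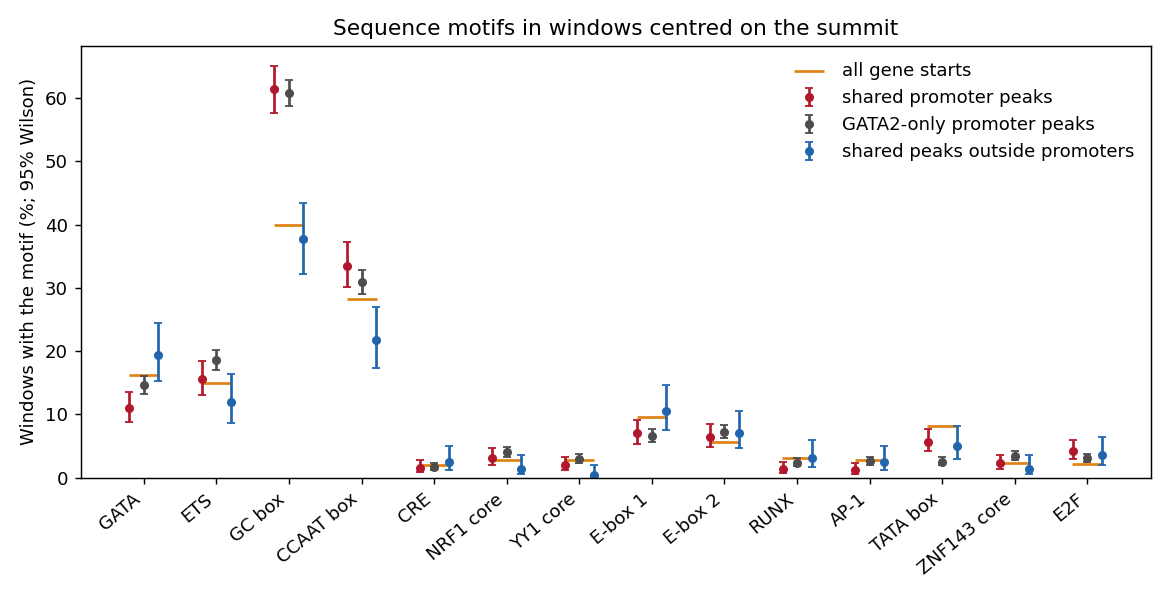
Share of windows of 100 bp to either side of the summit with each motif (y axis, %; points, with 95% Wilson intervals), for shared promoter peaks (red), GATA2-only promoter peaks (grey), shared peaks outside promoters (blue) and all protein-coding gene starts (orange line), where GATA stands for WGATAR, E-box 1 for CAGATG and E-box 2 for CACGTG. The GC box stands at 61.4% and 60.8% in the promoter classes and at 37.7% in shared peaks outside promoters.

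Some promoters are head to head, with protein-coding transcripts that start on both strands within 1 kb of the summit. Members and GATA2-only promoter peaks met the same rule of position, but they differed in more than overlap with a 9aa-Ins peak. Median GATA2 pileups were 22 and 14 reads, and median widths were 580 and 316 bp. Head-to-head starts were found at 131 of 674 members (19.4%, 16.6% to 22.6%) against 345 of 2316 GATA2-only promoter peaks (14.9%, 13.5% to 16.4%), a difference of 4.54 points (Fisher's exact test, two-sided, p = 0.00586). The share was 19.1% against 14.9% without histone genes (exact p = 0.0118). Genes of such a pair cannot be told apart by a single peak, as at Mcm4 and Prkdc, named after their values were seen, whose peak had 22 reads with GATA2 and 16 with 9aa-Ins. With a reciprocal overlap of 50% the difference was 2.49 points and did not pass (exact p = 0.214).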

How the data were processed

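Anti-HA CUT&Tag of hi-77-/- cells was analysed from 2 deposited peak lists, 1 for GATA2 and 1 for 9aa-Ins, each joining 2 libraries. The labels also give 3 anti-GATA2 libraries, not used here. The study's methods give alignment to mm10 with Bowtie2, removal of duplicates and blacklisted reads, and MACS3 calls at a q-value of 1e-06. Versions were not given in the sources used here. The lists carry 1 background each, as from 1 call on merged reads, whereas the methods describe merging of peaks called in replicates.

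The deposited fold enrichment, a ratio, is the pileup plus 1 over the background plus 1 at the summit, as the authors' caller writes it. All folds gave whole pileups (100%, tolerance 0.01 reads). The authors' −log10 p-values and −log10 q-values were used to check pileups and to filter. The number of columns that belonged to other samples was 0.

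Peaks were taken as shared at 1 bp of overlap, and each member was paired with its tallest overlapping 9aa-Ins peak. Starts came from protein-coding transcripts of the basic GENCODE M21 annotation. Each peak was named by its nearest start in reach. Python 3.11.15 was used with pandas 2.3.3, SciPy 1.17.1, statsmodels 0.14.6 and pysam 0.24.0. Intervals are Wilson intervals at 95%, and the limit beside a count of 0 is 3 counts of the total. The motif search and its test were tested on simulated data.

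The members, gene lists and motifs were chosen with earlier results of these data known. Genes named are the 10 members of highest pileup in each list, the 5 highest and 5 lowest ratios, all members of the GATA2, ETS, hematopoietic factor and cytokine lists, the 3 highest of every other list (or fewer, and more where pileups tied) and the peaks at each limit. Members of the RNA-seq lists are named in full, and genes outside the rule share a peak with a named gene or were picked once their values were known, as said beside them.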

Additional observations from a re-analysis of the deposited data

How the results depend on the processing

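No paired analysis was possible because the replicates are joined in either list, and for the same reason no replicate could be left out. The number of members was 404 with a reciprocal overlap of 50% and between 501 and 757 under the other alternatives. Of 13 alternatives, WGATAR against GATA2-only promoter peaks turned in whole peaks (5.56 points) and passed the threshold with summits within 200 bp (-5.24 points), over 5 bins of pileup (-9.2) and without histone gene promoters (-4.27), a choice made on seeing the data. Against shared peaks outside promoters it no longer passed with a reciprocal overlap of 50% (-6.61), with gene starts only (-1.08), in windows of 50 bp to either side (-2.83) and over 5 bins of GC content (-2.99). The ETS motif turned against GATA2-only promoter peaks in whole peaks (12.3), and against shared peaks outside promoters it passed there (11.8) and with promoters of 1 kb to either side (8.92). Motifs that differed from GATA2-only promoter peaks numbered 10 in whole peaks and 2 each with summits within 200 bp and over 5 bins of pileup, where WGATAR joined the TATA box. The GC box difference from shared peaks outside promoters (23.7 points) passed in all 13, at 12.2 to 33.6 points. CCAAT against shared peaks outside promoters no longer passed with a reciprocal overlap of 50% (11 points) and at a q-value of 1e-10 (10 points). The head-to-head difference no longer passed with a reciprocal overlap of 50% (2.49 points) and passed in the 9 other alternatives. Whole peaks of members are wider than GATA2-only promoter peaks (median 580 against 316 bp) but near shared peaks outside promoters (573 bp). The causes of these changes were not tested. The comprehensive annotation and the head-to-head comparison over 5 bins of pileup were also added after the data were seen. Both lists start at 9 reads, which limits what can be called GATA2-only.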
